A study of Mus musculus with 25 samples.

Results

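The genes described here are the cytosolic ribosomal proteins of the mouse retina, the protein parts of the ribosome that translates messenger RNA in the cytoplasm. They were chosen by symbol (Rpl or Rps followed by a number, with an optional a, l or x, together with Rplp0, Rplp1, Rplp2 and Rpsa) among the 18440 genes listed in all 5 deposited expression tables. The symbols matched 81 genes, 50 of the large and 31 of the small subunit. Of these, 78 reached 1 FPKM in at least 5 libraries and were tested among 13117 such genes, 47 of the large and all 31 of the small subunit. FPKM counts sequenced fragments after scaling for the length of the transcript and the size of the library. The 3 genes that did not pass were Rpl3l, Rpl6l and Rpl39l, paralogues of Rpl3, Rpl6 and Rpl39, and all 3 were under 1 FPKM in every library except 1 Ceapin-A7 library for Rpl3l, at 1.84 FPKM. Rpl10l and Rps4l were not analysed here. Rpl32l passed only through vehicle set 1 and the AA147 group, the 10 libraries in which it reached 1 FPKM, so its difference between the table kinds described below was fixed by the filter.

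A ribosome has a large subunit, which joins amino acids, and a small subunit, which reads the messenger RNA. Cells make the proteins of both subunits in matched amounts, since most are present in the same number in every ribosome. Most vertebrate ribosomal protein mRNAs begin with a cytosine followed by a run of pyrimidines, the terminal oligopyrimidine tract, through which mTORC1 and LARP1 control their translation and stability. In the unfolded protein response of the endoplasmic reticulum, translation is lowered through the kinase PERK and eIF2, while ATF6 and IRE1 raise the transcription of chaperones.

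Bulk RNA sequencing of wild-type C57BL/6J retinas gave 25 libraries in 5 groups of 5. Mice had received 1 µL into the vitreous of both eyes on postnatal day 30, holding 10 µM of 1 compound. AA147 is described by the series as an activator of ATF6, Ceapin-A7 as an inhibitor of ATF6, and tunicamycin, which blocks protein N-glycosylation, as the positive control. All compounds were dissolved in saline with 0.05 to 0.1% DMSO. The vehicle libraries, labelled PBS but described as the same saline with DMSO, formed vehicle set 1 and vehicle set 2. Eyes were collected 24 hours, 3 days or 7 days later in the study as a whole. The 15 compound columns carry the 24-hour mark and the 10 vehicle columns no time, so a difference in collection time between vehicle and compound libraries cannot be told apart from the compound. The tables of AA147 and vehicle set 1 listed 18676 genes, and those of tunicamycin, Ceapin-A7 and vehicle set 2 listed 19102. Each compound was compared with the vehicle set of the same gene list. The labels do not tie libraries to animals, so p-values describe variation among libraries, part of which may be technical. In bulk tissue, fewer cells of a type and less RNA per cell cannot be told apart.

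Some features of the libraries bear on the comparisons. Tunicamycin library 1 had the highest FPKM of Hspa5, the chaperone BiP, at 1513 (the other 4 tunicamycin libraries 229 to 581, vehicle set 2 106 to 162), and of the lens crystallin Cryaa, at 6234. The summed FPKM of 13 lens markers ran from 78.06 to 16820 in tunicamycin and from 72.82 to 6800 in vehicle set 2, and none of the 13 passed the test. Of 10 pigment epithelium markers, 9 of them tested, 4 were lower in tunicamycin than in vehicle set 2. Of 8 endothelial markers 4 were lower and 1 higher, and of 9 cone markers 1 was higher. Among all genes 2.81% were lower and 5.89% higher. The Y-linked gene Ddx3y reached 1 FPKM in all libraries of vehicle set 1 and of tunicamycin. It stayed below 1 FPKM in 4 of the 5 vehicle set 2 libraries, in 2 of AA147 and in 2 of Ceapin-A7. All 4 Y-linked genes checked, Ddx3y among them, were higher in tunicamycin than in vehicle set 2. The defining rod, cone, Müller glia and ganglion cell markers of a retina were above 0 in every library. Depth is not given with FPKM; a rough estimate from the steps between low values was 15.2 to 25.88 M fragments, clear in 24 libraries.

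Ribosomal protein mRNAs were among the most abundant of the retina. Over the 10 vehicle libraries 73 of the 78 tested members had a mean of at least 100 FPKM, a level that 665 of all 13117 tested genes reached, and 70 were among the 500 genes of highest level. The median level was 282 FPKM for the large and 317 FPKM for the small subunit. In the large subunit the levels were highest for Rplp1 (699.4 FPKM), which forms the stalk that recruits elongation factors, Rpl23a (678 FPKM), Rpl26 (571.7 FPKM) and Rpl41 (569.6 FPKM), and in the small subunit for Rps15 (851.4 FPKM), Rps27 (841.4 FPKM), Rps29 (609 FPKM) and Rps14 (577.1 FPKM). The order differed between the vehicle sets. In set 1 Rpl23a (682.1 FPKM) and Rpl26 (675.9 FPKM) led the large subunit, ahead of Rplp1 (582.2 FPKM), and Rps15 (985.3 FPKM) the small subunit. In set 2 Rplp1 (816.6 FPKM) and Rpl23a (673.9 FPKM) led the large subunit, with Rpl26 at 467.6 FPKM, and Rps27 (942 FPKM) stood above Rps15 (717.4 FPKM). At the low end stood Rpl32l (1.01 FPKM), followed by Rps20 (24.87 FPKM), Rps15a (28.2 FPKM), Rps27l (29.71 FPKM) and Rpl22 (49.92 FPKM). Many ribosomal protein genes have near-identical processed pseudogenes, and reads shared with such copies could have been split by the authors' counting, so levels of single members are uncertain.

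Paralogue pairs differed widely in level. Rpl3, which lies next to the catalytic centre, had 365.7 FPKM in the vehicle libraries, whereas its paralogue Rpl3l, known from striated muscle, stayed between 0 and 0.21 FPKM there. Rpl39, which lines the exit tunnel, had 321.8 FPKM beside Rpl39l, known from testis, at 0 to 0.16 FPKM. Rps27 had 841.4 FPKM and its p53-responsive paralogue Rps27l 29.71 FPKM. Rps4x, the X-linked small subunit protein, lay between 266 and 384 FPKM in the vehicle libraries.

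The stretches around the annotated starts of 8 members on which the results below turn are given here, Rpl10 and Rplp0 for tunicamycin, Rpl39, Rpl13a, Rps15 and Rpl26 for the vehicle sets, and Rps15a and Rpl38 as starts with a pyrimidine run on the first base. Each shows 15 bases before and 15 bases from the annotated start, from RefSeq on GRCm38.p6, with capitals marking a run of C followed by at least 4 bases that are each C or T, read on the sense strand and beginning within 5 bases of the start.
Rpl10 (chrX:74270801-74270830, + strand): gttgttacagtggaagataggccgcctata
Rplp0 (chr5:115559452-115559481, + strand): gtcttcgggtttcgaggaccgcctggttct
Rpl39 (chrX:37085208-37085237, - strand): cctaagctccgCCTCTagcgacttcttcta
Rpl13a (chr7:45128731-45128760, - strand): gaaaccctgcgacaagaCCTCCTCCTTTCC
Rps15 (chr10:80292416-80292445, + strand): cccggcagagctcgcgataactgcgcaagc
Rpl26 (chr11:68901551-68901580, + strand): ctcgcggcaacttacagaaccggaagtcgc
Rps15a (chr7:118116133-118116162, - strand): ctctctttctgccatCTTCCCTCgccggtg
Rpl38 (chr11:114668565-114668594, + strand): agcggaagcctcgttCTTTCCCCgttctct
Of the 81 members 60 had an entry in the RefSeq table. The first 5 bases from the annotated start were C followed by 4 bases that are each C or T in 14 of 60 (23.3%), whether or not the run began further upstream, against 3.04% of 10443 tested genes with an entry and 0 of 69 mitochondrial ribosomal proteins. Such a stretch of 5 bases began within 5 bases of the start in 29 of 60 (48.3%), against 23.7% of the tested genes and 24.6% of the mitochondrial ribosomal proteins. The letters describe annotated starts, and a missing run says only that it is not in this window.

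Across the whole family, tunicamycin moved few members. Of the 78 tested, 3 rose against vehicle set 2 and 0 fell by limma's moderated test on log2(FPKM + 1) (Benjamini-Hochberg adjusted p under 0.05), while 5.89% of all 13117 tested genes rose and 2.81% fell. At an unadjusted p under 0.05 there were 11 members, against 24.6% of all genes. The members called were 3.85% of those tested, beside 8.7% among all genes in either direction. The median log2 change of the members was 0.06, that of all genes 0.01, and 60 of 78 members had a positive change against 54.4% of all genes. Large and small subunit members had medians of 0.06 and 0.05. With median-ratio scaling, which sets the typical gene equal between libraries, the members were again 3 higher and 0 lower, beside 4.43% of all genes higher and 4.25% lower. The median of the members was then 0.04 and that of all genes 0.00.

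**Figure D1:**
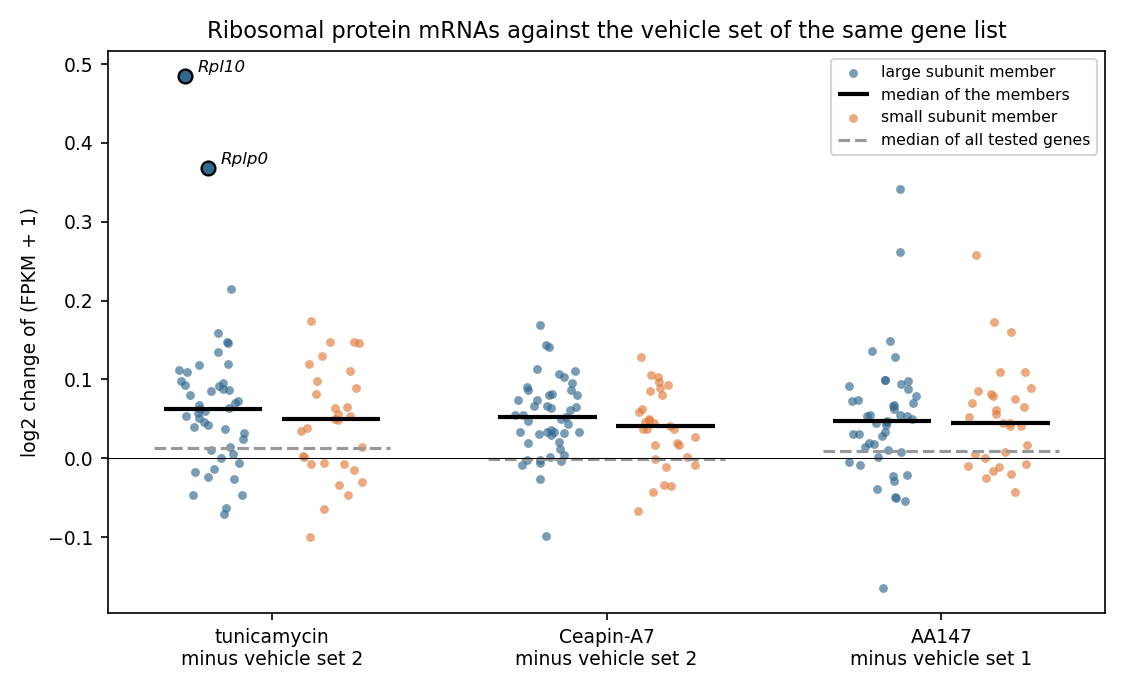
Log2 change of (FPKM + 1) of each tested ribosomal protein mRNA in each compound group against the vehicle set of the same gene list, n = 5 libraries a group. Points are members, black bars subunit medians, dashed lines the median of all tested genes, and ringed points Rpl10 and Rplp0, called in tunicamycin; 1 member is not drawn, and all points without a ring lie between -0.16 and 0.34.

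Rpl10, which sits close to the catalytic centre and joins the large subunit late in its assembly, had the largest change. In vehicle set 2, libraries 1 to 5 had 299, 291, 279, 327 and 306 FPKM of Rpl10. In tunicamycin they had 615, 367, 332, 448 and 390 FPKM. All 5 tunicamycin libraries lay above all 5 of vehicle set 2, with library 1 far above the other 4. The log2 change was 0.48 ± 0.11 (SE pooled over 5 groups), a 1.399-fold difference in (FPKM + 1), at an adjusted p of 0.00906 (limma). A pooled SE takes the spread as equal in all groups. The SD of Rpl10 was 111.6 FPKM in tunicamycin and 12.45 to 28.37 FPKM in the other groups, so this SE may be too small. Rpl10 was the only member whose libraries did not overlap in this comparison, 1 of 78 (1.28%) against 4.05% of all genes. Without tunicamycin library 1 the change was 0.35 (adjusted p = 0.0165). With the level of Ddx3y as a covariate it was 0.38 (adjusted p = 0.121). Rpl10 lies on the X chromosome, and Ddx3y was below 1 FPKM in 4 of the 5 vehicle set 2 libraries and in 0 of tunicamycin. With only library 5 of vehicle set 2 (306 FPKM of Rpl10) carrying Ddx3y, sex and tunicamycin cannot be told apart in this comparison. In Ceapin-A7, libraries 1 to 3 carried Ddx3y and had 282, 330 and 311 FPKM of Rpl10. Libraries 4 and 5 of Ceapin-A7, without Ddx3y, had 276 and 302 FPKM.

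Rplp0, the base of the stalk that carries Rplp1 and Rplp2, also rose. Its FPKM was 191, 192, 172, 201 and 164 in vehicle set 2 and 284, 200, 240, 226 and 244 in tunicamycin. The groups met only at tunicamycin library 2, which lay just under vehicle library 4. The log2 change of Rplp0 was 0.37 ± 0.08 (adjusted p = 0.00511, limma), and it was 0.37 (adjusted p = 0.0386) with Ddx3y as a covariate. The stalk partners did not pass the test. Rplp1 had a log2 change of 0.01 ± 0.07 and Rplp2 one of 0.07 ± 0.07, with means of 828.8 ± 104.7 and 583.3 ± 54.54 FPKM (SD, n = 5) in tunicamycin against 816.6 ± 34.87 and 552.6 ± 13.55 FPKM in vehicle set 2.

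Of the other fixed members, Rpsa (log2 change 0.00 ± 0.06), Rps27a (-0.01 ± 0.08), Rps4x (-0.03 ± 0.06), Rpl41 (0.09 ± 0.09), Rps6 (0.11 ± 0.06), the substrate of S6 kinase, and Rpl3 (0.05 ± 0.05) did not pass.

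The number of members called was 6 without tunicamycin library 2, and 2 without vehicle set 2 library 1, tunicamycin library 1 or tunicamycin library 5. None of the 3 calls held in a fit of tunicamycin and vehicle set 2 alone, where limma called 0 members, and the adjusted p was 0.164 for Rpl10 and 0.12 for Rplp0. In that fit the calls of all 19 genes named from the further lists below ended too. The share of all genes called in these fits is not given here. The lower pigment epithelium and endothelial markers and the lens RNA of tunicamycin library 1 stood beside these changes, and their part in the result was not tested.

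**Figure D2:**
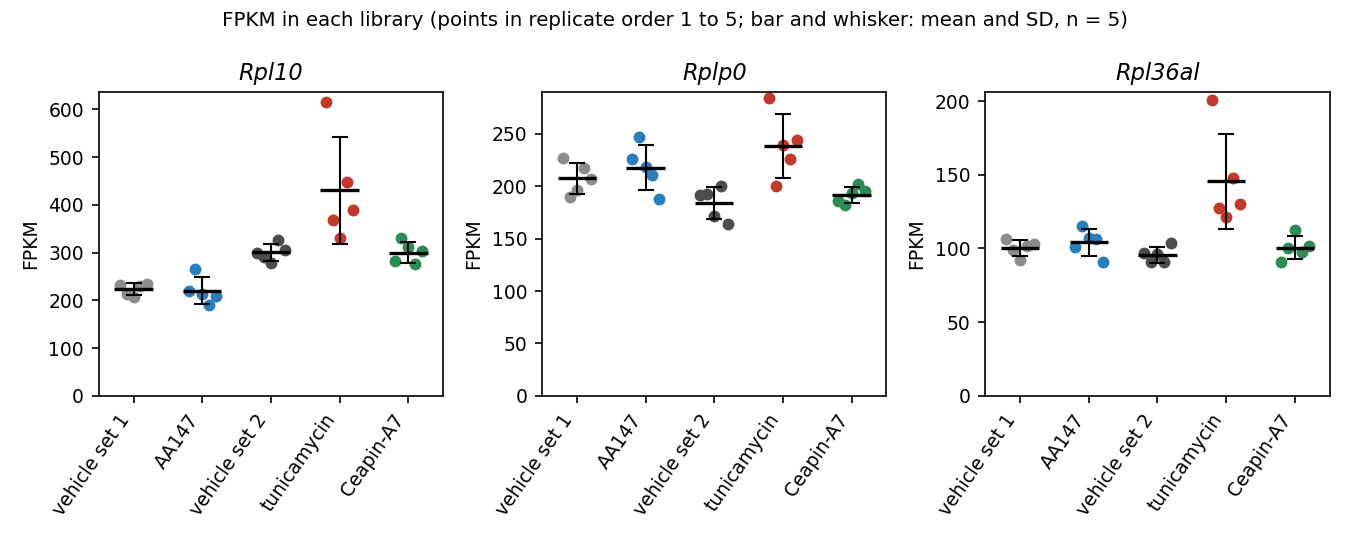
FPKM of Rpl10, Rplp0 and the Rpl36a paralogue Rpl36al in each of the 25 libraries (points in the order of library 1 to 5, bar and whisker the mean and SD, n = 5). Tunicamycin library 1 is the highest for all 3 genes within its group.

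Other genes of the ribosome and of translation were tested as 7 further lists. Of all 13117 tested genes, 5.89% rose and 2.81% fell in tunicamycin against vehicle set 2. Of 7 tested ribosome parts with other symbols 1 rose, Rpl36al, a paralogue of Rpl36a. Its FPKM was 96.9, 90.7, 96.5, 91.1 and 104 in vehicle set 2 and 201, 127, 121, 148 and 130 in tunicamycin, with no overlap. The log2 change of Rpl36al was 0.57 ± 0.10 (adjusted p = 0.000515, limma), while that of Rpl36a was 0.09 ± 0.06 (adjusted p = 0.321). The difference between the paralogues was not tested. Rack1, a scaffold of the small subunit, had a log2 change of 0.15 ± 0.06 and did not pass.

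Among 20 mRNAs of translation elongation and other known terminal oligopyrimidine mRNAs 1 rose, Eif3e (0.27 ± 0.08, adjusted p = 0.0324, limma), beside 5.89% of all genes. Of 32 initiation factors 4 rose, led by Eif2s2 (0.70 ± 0.17), which encodes the beta subunit of eIF2, Eif1 (0.38 ± 0.10), Eif3c (0.34 ± 0.09) and Eif5 (0.31 ± 0.07). Of 27 genes that control translation through mTORC1 and eIF2 6 rose and 0 fell. They included Eif4ebp1, an inhibitor of cap-dependent initiation (1.46 ± 0.44), Sesn2, an inhibitor of mTORC1 (1.35 ± 0.30), Ppp1r15a, which restores eIF2 activity (0.80 ± 0.18), and Eif2ak3, which encodes PERK (0.42 ± 0.10). In vehicle set 2, Eif4ebp1 had 2.58, 2.03, 1.45, 12.7 and 16.5 FPKM. In tunicamycin it had 40.2, 16.2, 5.64, 12.8 and 14.5 FPKM. Libraries 4 and 5 of the vehicle set thus lay inside the tunicamycin range, as they did for Ppp1r15a (20.31 and 22.59 FPKM, beside 17.82 to 44.83 in tunicamycin) and Sesn2 (16.2 and 14.8 FPKM, beside 10.16 to 84.33 in tunicamycin). Without these 2 vehicle libraries the log2 change was 2.41 for Eif4ebp1, 1.59 for Sesn2 and 1.15 for Ppp1r15a. Without tunicamycin library 1 it was 0.45 for Eif2s2, 0.23 for Eif1 and 0.22 for Eif3c.

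Of 53 ribosome assembly factors 10 rose and 0 fell, beside 5.89% of all genes higher and 2.81% lower. The median change of the list was 0.095. Examples were Ltv1 (0.34 ± 0.08), a factor of small subunit maturation, the nucleolar GTPase Gnl3 (0.31 ± 0.07), Imp3 (0.26 ± 0.08) and Utp20 (0.26 ± 0.07). Whether the lists differ from one another was not tested. Of 16 tested genes of RNA polymerase I and its factors 1 rose, Taf1d (0.30 ± 0.08). Of 78 mitochondrial ribosomal proteins, which belong to a separate ribosome, 4 rose, Mrps18b (0.39 ± 0.10), Mrps30 (0.24 ± 0.06), Mrpl30 (0.24 ± 0.06) and Mrps2 (0.18 ± 0.05), and 0 fell. For these mitochondrial genes and for RNA polymerase I, the share that rose was near the 5.89% of all genes. Of the 19 genes named from these 7 lists, 9 kept their call when any 1 library was left out, among them Rpl36al, Eif2s2, Sesn2, Ppp1r15a, Eif2ak3, Ltv1 and Gnl3. Without tunicamycin library 1 the call ended for 9, Eif3e, Eif4ebp1, Imp3, Utp20, Taf1d and the 4 mitochondrial ones, and without vehicle set 2 library 1 for Eif3c and 4 of those 9. Each other library of the 2 groups except tunicamycin library 3 ended 1 to 6 of the same 9 calls when left out. With Ddx3y as a covariate 6 of the 19 kept the call, and in a fit of tunicamycin and vehicle set 2 alone none did (adjusted p = 0.0689 for Rpl36al).

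**Figure D3:**
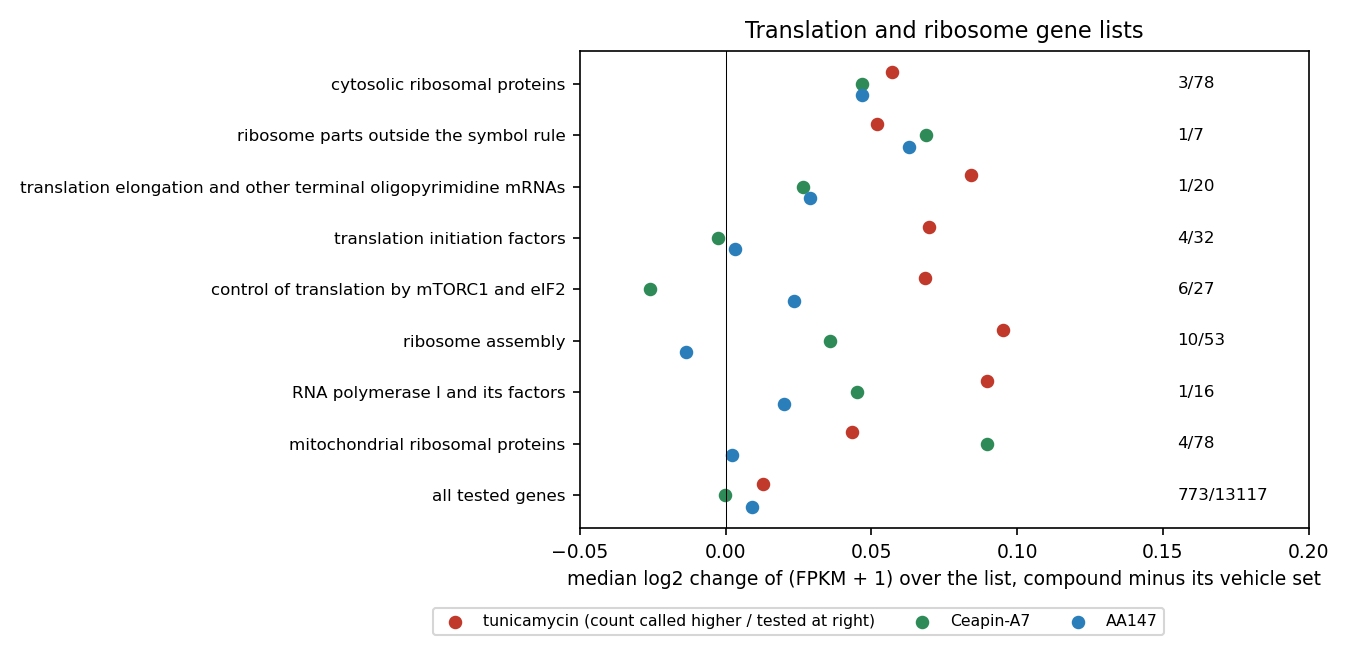
Median log2 change of (FPKM + 1) over each gene list in tunicamycin, Ceapin-A7 and AA147, each against its vehicle set. Fractions at the right give the genes called higher in tunicamycin over those tested. They are 3 of 78 for the cytosolic ribosomal proteins, 10 of 53 for ribosome assembly and 773 of 13117 (5.89%) for all tested genes.

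Ceapin-A7 left the family without a call. By limma 0 of 78 members and 0 of 13117 genes (0.0%) passed against vehicle set 2. At an unadjusted p under 0.05 there were 3 members and 12.3% of all genes. The median change of the members was 0.05, that of all genes 0.00, and 64 of 78 members had a positive change against 49.8% of all genes. With median-ratio scaling the median of the members was again 0.05, and 64 of 78 were positive against 49.3% of all genes. All 78 changes lay within 0.25 of 0 on the log2 scale, from -0.10 (Rpl30) to 0.17. Quantile normalization turned the median of the members to -0.01, while median-ratio scaling kept it positive. Over the 21 alternatives run this median lay between -0.01 and 0.08.

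The members of smallest p for Ceapin-A7 were Rps9, Rpl27 and Rpl24. Rps9, which helps keep decoding accurate, had 289, 315, 302, 293 and 284 FPKM in vehicle set 2 and 317, 324, 325, 333 and 323 FPKM in Ceapin-A7. All Ceapin-A7 libraries lay above all vehicle libraries for Rps9 alone, 1 of 78 (1.28%) against 0.968% of all genes. Its log2 change was 0.13 ± 0.05 (unadjusted p = 0.0147, adjusted p = 0.332, limma), with a 95% interval of 0.03 to 0.23. Rpl27 had a change of 0.14 ± 0.06 (adjusted p = 0.369) and Rpl24, which forms a bridge to the small subunit, one of 0.11 ± 0.05 (adjusted p = 0.397), and the libraries overlapped for both. None of the genes of the 7 companion lists passed.

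AA147 likewise gave 0 of 78 members and 0 of 13117 genes (0.0%) against vehicle set 1 by limma, with 2 members and 1.88% of all genes at an unadjusted p under 0.05. The median of the members was 0.05, that of all genes 0.01, and 61 of 78 had a positive change against 57.1% of all genes. With median-ratio scaling the median of the members was 0.03, and 54 of 78 were positive against 47.8% of all genes. Rps21, a small subunit protein that had 637, 616, 577, 641 and 570 FPKM in vehicle set 1, had 609, 716, 884, 811 and 647 FPKM in AA147. No member had groups without overlap in this comparison, against 0.656% of all genes. The Rps21 groups overlapped at AA147 library 1, and the log2 change of Rps21 was 0.26 ± 0.11 (unadjusted p = 0.03, adjusted p = 1.0). Rps25 had a change of 0.17 ± 0.08 and Rplp1 one of 0.15 ± 0.07, both with an adjusted p of 1.0. The largest change, 0.34 ± 0.19 for Rpl38, rested on vehicle set 1 library 2, which had 166 FPKM of this large subunit protein beside 455 to 516 in the other 4. None of the companion lists held a call for AA147.

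Tunicamycin and Ceapin-A7 shared vehicle set 2, so the 2 comparisons are not independent. Set directly against Ceapin-A7, tunicamycin had 3 members higher and 1 lower, 5.13% of the 78 beside 13.3% of all genes (8.83% higher and 4.48% lower). With median-ratio scaling 2 were higher and 1 lower, beside 6.99% and 6.27% of all genes. Rpl10 was higher by 0.49 ± 0.11 (adjusted p = 0.00659, limma), with 282, 330, 311, 276 and 302 FPKM in Ceapin-A7, all under the tunicamycin libraries. Rplp0 was higher by 0.31 ± 0.08 (adjusted p = 0.0127). Rps15a was higher by 0.14 ± 0.05 (adjusted p = 0.0461), with 28.6 to 29.3 FPKM in Ceapin-A7 and 29.8 to 35.7 FPKM in tunicamycin. Rpl27 was lower by -0.20 ± 0.06 (adjusted p = 0.0305), with 181 to 226 FPKM in tunicamycin and 212 to 238 FPKM in Ceapin-A7. The call of Rps15a ended when any 1 of 8 of the 10 libraries was left out and with median-ratio scaling (adjusted p = 0.106), and that of Rpl27 when any 1 of 7 was. The number called was 2 without tunicamycin library 1, 4 or 5 or Ceapin-A7 library 1 or 5, and 6 without tunicamycin library 3. In a fit of these groups alone 0 were called. The share of all genes in these reduced fits is not given here.

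The effect of tunicamycin minus that of AA147, each against its own vehicle set, passed for 0 of 78 members (4 at an unadjusted p under 0.05) and for 1.04% of all genes. For Rpl10 this difference was 0.51 ± 0.16 (adjusted p = 0.115, limma, 95% interval 0.19 to 0.84), and for Rplp0 0.30 ± 0.11 (adjusted p = 0.19). The effect of AA147 minus that of Ceapin-A7, the activator and the inhibitor of ATF6, passed for 0 members and 0.0% of all genes, and 0 members had an unadjusted p under 0.05. For Rps21 it was 0.32 ± 0.16, with a 95% interval of -0.001 to 0.65, and a missed threshold does not show that the compounds act alike. For both differences the share of all genes at an unadjusted p under 0.05 is not given here. The member counts at that cutoff thus have no background beside them.

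More members differed between the 2 vehicle sets than between any compound and its own vehicle set. Of the 78 members 29 were higher and 13 lower in vehicle set 2 than in vehicle set 1, while 26.3% of all genes were higher and 20.5% lower. The 53.8% of members called thus stood beside 46.8% of all genes. Libraries did not overlap for 31 members (39.7%), against 33.4% of all genes. Both the 13 lower and the 31 without overlap include Rpl32l, whose difference was fixed by the filter. With median-ratio scaling 26 members were higher and 16 lower, beside 23.3% and 24.1% of all genes. The sets sit in tables that list different genes, so a difference in the authors' processing, in collection time and in the animals cannot be told apart. Of 14 rod markers 5 were lower in vehicle set 2, of 9 cone markers 4, and of 9 ganglion cell markers 4 were lower and 2 higher, beside 20.5% of all genes lower. Of 5 erythrocyte and 11 microglia markers 1 each was lower, as were all 4 Y-linked genes checked. The part of these in the result was not tested.

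**Figure D4:**
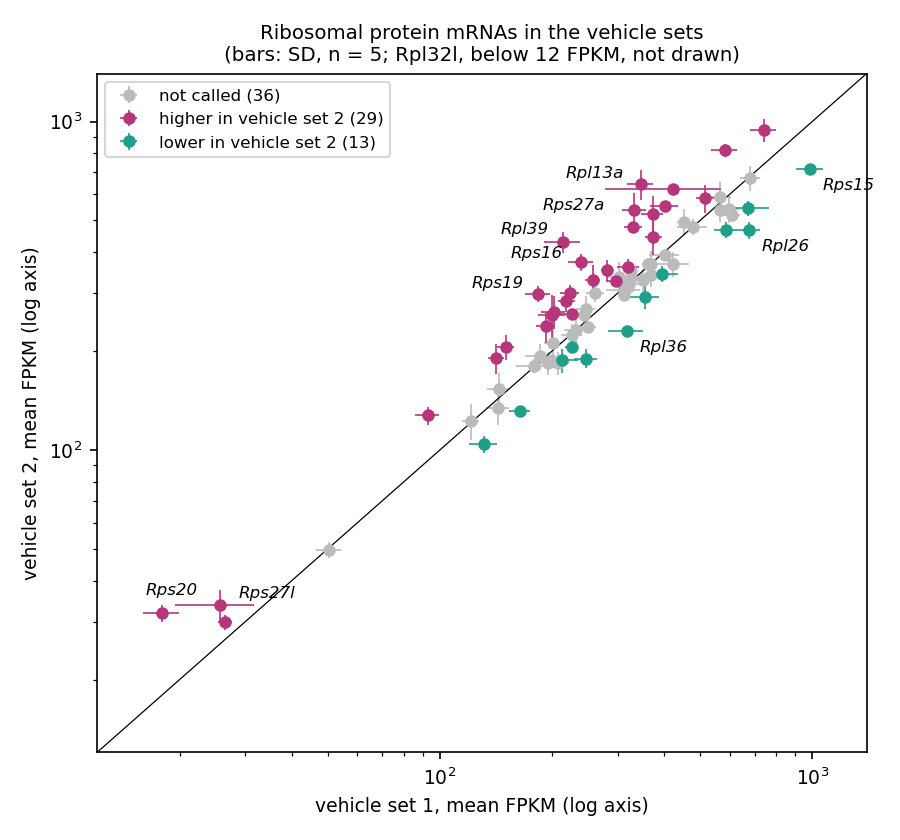
Mean FPKM of each ribosomal protein mRNA in vehicle set 1 and vehicle set 2 on log axes (bars SD, n = 5; the line marks equal levels). The 29 members above the line in magenta were called higher in vehicle set 2, with Rpl39, Rpl13a and Rps20 farthest above it, and 12 of the 13 called lower are drawn in green.

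Rpl39 was the farthest apart among the members higher in vehicle set 2. Its FPKM was 231, 194, 212, 244 and 189 in vehicle set 1 and 405, 481, 411, 439 and 414 in vehicle set 2, a log2 difference of 1.01 ± 0.08 (adjusted p = 1.01e-09, limma). The other groups followed their tables, AA147 at 233.6 ± 21.1 FPKM, tunicamycin at 431.3 ± 50.06 FPKM and Ceapin-A7 at 465.1 ± 39.2 FPKM (SD, n = 5). Rpl13a, a large subunit protein also known from a complex that silences inflammatory mRNAs, had 346.4 ± 27.6 FPKM in vehicle set 1 and 644.6 ± 66.83 FPKM in vehicle set 2, a difference of 0.89 ± 0.07. Rps20 (0.80 ± 0.07), Rps19 (0.70 ± 0.07), Rps27a, made as a fusion with ubiquitin (0.69 ± 0.08), and Rps16 (0.64 ± 0.06) followed.

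Of the fixed members, Rplp1 (0.49 ± 0.07) and Rplp2 (0.46 ± 0.07) were higher in vehicle set 2 while Rplp0 was not called (-0.17 ± 0.08, adjusted p = 0.078). Rpl10 (0.43 ± 0.11), Rps4x (0.33 ± 0.06), Rpsa (0.30 ± 0.06) and Rps27l (0.41 ± 0.14) were higher, the call of Rps27l ending without vehicle set 1 library 3 (adjusted p = 0.0512) or 5 (adjusted p = 0.0605), and without vehicle set 2 libraries 4 and 5 together (adjusted p = 0.112). Rpl26, near the mouth of the exit tunnel, was lower, at 689, 653, 648, 638 and 752 FPKM in vehicle set 1 and 434, 442, 485, 482 and 495 FPKM in vehicle set 2 (-0.53 ± 0.07, adjusted p = 7e-07, limma). Rpl36 (-0.46 ± 0.08) and Rps15 (-0.45 ± 0.06) were also lower. Rpl32l had 1.45 to 2.56 FPKM in vehicle set 1 and 0 to 0.37 FPKM in vehicle set 2, a difference fixed by the filter.

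The split ran through all groups. The 15 libraries of the tunicamycin, Ceapin-A7 and vehicle set 2 tables lay wholly above the 10 of the AA147 and vehicle set 1 tables for 15 members (19.2%), against 11.6% of all genes. The 15 were Rpl10, Rpl13a, Rpl15, Rpl27, Rpl38, Rpl39, Rplp1, Rplp2, Rps13, Rps16, Rps19, Rps2, Rps20, Rps27a and Rps3. They lay wholly below for 4 members (5.13%), Rpl21, Rpl26, Rpl32l and Rps15, against 8.12% of all genes. Of these, Rpl32l had its place fixed by the filter. Set against the vehicle of the other table kind, tunicamycin would have 45, Ceapin-A7 44 and AA147 38 members called, beside 56.3%, 50.9% and 45.9% of all genes.

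Summed over the family, the members held 5.45 to 6.96% of the FPKM of a library. The sum was 24440 ± 1150 FPKM in vehicle set 1, 25390 ± 1350 in AA147, 26110 ± 1270 in vehicle set 2, 27270 ± 2010 in tunicamycin and 26990 ± 501 in Ceapin-A7 (SD, n = 5). The ranges of each compound and its vehicle set overlapped. The ratio of large to small subunit FPKM was 1.304 ± 0.022 in vehicle set 1 and 1.306 ± 0.022 in AA147, and 1.366 ± 0.017, 1.383 ± 0.025 and 1.377 ± 0.022 in vehicle set 2, tunicamycin and Ceapin-A7. All libraries of vehicle set 2 (1.351 to 1.392) lay above all of vehicle set 1 (1.271 to 1.324), while each compound overlapped its own vehicle set. The median of single genes had the opposite order. The log2 difference of vehicle set 2 minus vehicle set 1 had a median of 0.01 over the 47 large and 0.13 over the 31 small subunit members. A median counts each gene alike and a sum gives abundant genes more weight, but the reason for the opposite order was not tested.

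**Figure D5:**
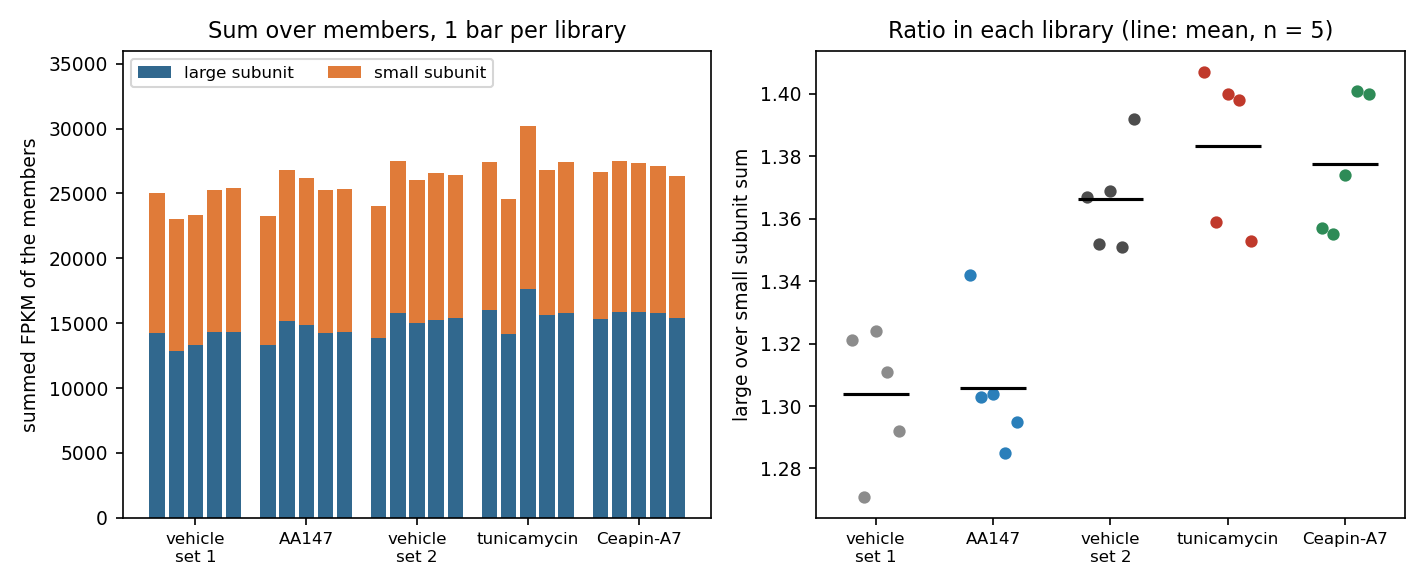
Left, summed FPKM of the large and small subunit members in each of the 25 libraries, from 23039 to 30195 FPKM in all. Right, the ratio of the sums in each library (line, mean of 5), which is 1.304 in vehicle set 1 and 1.366 in vehicle set 2; this axis does not start at 0.

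Within groups the members moved together from library to library. After the group means were removed, the median correlation between pairs of 77 members at 15 FPKM or more was 0.43 over the 25 libraries. It was 0.193 for 78 mitochondrial ribosomal proteins and 0.034 for 5671 genes at 15 to 1100 FPKM. Pairs of a large and a small subunit member had a median of 0.427, near the 0.443 within the large and the 0.392 within the small subunit. All points of a correlation share libraries, depth and scaling. With median-ratio scaling the median was 0.405 for the members and 0.009 for the comparison genes, and without the tunicamycin libraries 0.393 and 0.031.

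Rps14 (0.838), Rps12 (0.825) and Rplp1 (0.814) were closest to the mean of the other members. Farthest from it were Rps27l (0.068), Rpl10 (0.106) and Rps26 (0.134). Without the 5 tunicamycin libraries the value of Rpl10 was 0.428, while that of Rps27l was 0.056 and that of Rps26 0.253. The SD within a group, averaged over groups on the log2 scale, had a median of 0.104 for the members and 0.0859 for genes of 15 to 1100 FPKM. It was larger for shorter transcripts, with a median of 0.119 in 18 members under 500 bases and 0.1 in 59 longer ones (Spearman -0.34 across 77 members, which are not independent). Rpl38, Rpl30, Rpl32l and Rps27l had the largest spread. For Rps27l the 5 libraries of vehicle set 1 ran from 18.3 to 31.8 FPKM and those of AA147 from 19.3 to 35.7 FPKM. Those of vehicle set 2 ran from 29.16 to 38.05 FPKM and those of Ceapin-A7 from 29.08 to 38.42 FPKM. The tunicamycin libraries lay within these last ranges, over a narrower span from 36.1 to 37.9 FPKM.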

How the data were processed

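Stranded mRNA libraries of retina freed of cornea and lens were sequenced on DNBSEQ, per the labels' protocols. The authors deposited FPKM values in 1 table per group. HISAT2 2.0.4, RSEM 1.2.18, DESeq2 1.4.5 and GRCm39 are named in the submitters' processing notes, without their roles, and the strand setting of the counting is not given in the sources used here. Columns were matched to samples by name, and 0 were left out. The members, lists and named genes were chosen with earlier results of these data known. Values were fitted as log2(FPKM + 1), which understates changes of low genes, with limma 3.58.1 (R 4.3.3, trended eBayes, 1 fit over 25 libraries and 5 groups, two-sided) on genes of at least 1 FPKM in 5 libraries. P-values were adjusted by Benjamini-Hochberg over all 13117 tested genes, with calls under 0.05. The procedure was tested on simulated data. Members were named where called (otherwise the 3 of smallest p), highest, lowest or most variable, or fixed as paralogue, stalk or fusion genes, and others as outliers or by size of the vehicle difference. Values of 1 member called in tunicamycin and of 1 ribosome part with another symbol are not reported here, though both enter the counts. Transcript lengths came from GENCODE M21. Scaling, pseudocount, filter, sample and covariate alternatives were run.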

Additional observations from a re-analysis of the deposited data

Results flagged for a closer look

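In 10 of 145 groups looked at (29 named members in 5 groups) 1 library of the 5 stood apart from the other 4 by more than 0.71 of the range of the group. Chance alone does this in about 1 in 20 groups, so much of this number can be chance. In vehicle set 1, library 2 was low for Rpl38 (165.65 FPKM), Rpl41 (537.82 FPKM) and Rps29 (508.26 FPKM). In AA147, library 1 was low for Rps29 (620.43 FPKM) and Rps6 (208.32 FPKM). In tunicamycin, library 2 was low for Rpl26 (417.11 FPKM) and Rps9 (293.82 FPKM). In Ceapin-A7, library 3 was low for Rpl30 (347.79 FPKM), and library 4 was high for Rpl38 (696.51 FPKM) and library 2 for Rpl32l (0.89 FPKM).

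For 4 members (5.13%, against 13.3% of all genes) the effect of tunicamycin differed from that of Ceapin-A7 by limma's test of the difference. Since both are set against vehicle set 2, this is the direct comparison given above and no further result. The log2 difference was 0.487 for Rpl10 (adjusted p = 0.00659) and 0.3067 for Rplp0 (adjusted p = 0.0127). It was 0.14 for Rps15a (adjusted p = 0.0461) and -0.2042 for Rpl27 (adjusted p = 0.0305). Leaving out any 1 of 8 of the 10 libraries ended the call of Rps15a, and any 1 of 7 that of Rpl27.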

How the results depend on the processing

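The number of members called in tunicamycin against vehicle set 2 was 3, with 2 to 6 when 1 library was left out, 0 in a fit of the compared groups only, 1 with Ddx3y as a covariate and 45 against the other vehicle set. Against Ceapin-A7 it was 4, with 2 to 6 when 1 library was left out and 0 in the compared groups only. Against the other vehicle set, Ceapin-A7 had 44 members called and AA147 38 (all genes 56.3% for tunicamycin, 50.9% and 45.9%), and the large minus small subunit median was -0.095 for Ceapin-A7 (0.011 against its own set) and 0.0856 for AA147 (0.002). There also Eif3c (-0.0639) and Mrps18b (-0.0156) in tunicamycin, and Rps25 (-0.1772) and Rplp1 (-0.3413) in AA147, had the opposite sign. Quantile normalization gave the members' median in Ceapin-A7 as -0.0111. Fewer libraries in the fit, a spread estimated from the compared groups alone and a different control are how these alternatives are built. The cause of the other changes was not tested. The calls of 0 in Ceapin-A7 and AA147 remained 0 under the other alternatives run, and 37 to 42 members were called between the vehicle sets. The share of all genes is given for the main fit, median-ratio scaling and the other vehicle set only.

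The labels give the groups replicate numbers 1 to 5. With group means removed, same-numbered libraries of tunicamycin and vehicle set 2 had correlations of -0.426 to 0.396. In this comparison 0 libraries correlated best with their own number, so no pairing was seen, which does not exclude one. With a replicate block 3 members were called in tunicamycin. FPKM carries no counts, so counting error of low members such as Rpl32l is unknown.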
